A study of Mus musculus with 39 samples.

Results

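The genes described here encode subunits of the oxidative phosphorylation machinery that are carried in the mouse nuclear genome. They were chosen by gene symbol alone, as the rows named for NADH dehydrogenase subunits (Nduf with a, b, c, s or v and a number), succinate dehydrogenase (Sdh), the cytochrome bc1 complex (Uqcr and Cyc1), cytochrome c oxidase (Cox4i, Cox5, Cox6, Cox7 and Cox8) and ATP synthase (Atp5), without pseudogenes. The rule found 83 rows with 82 symbols among the 16979 rows of the labelling and inhibition table. In the fixation table it found 84 rows with 83 symbols among 13938, the additional gene being Cox6b2. Complex I had 36 of the 83 rows, complex II 4, complex III 9, complex IV 15 and complex V 15. Ndufa4, despite its name, was counted in complex IV. The 4 remaining rows were not subunits by role or were uncertain: Cox7a2l, a supercomplex assembly factor, Atp5s and Atp5sl, and a second row with the symbol Ndufa13, whose identifier ENSMUSG00000048967 the GENCODE annotation calls Yjefn3. The last overlaps the span of the main Ndufa13 row (ENSMUSG00000036199) on chromosome 8 and is written Ndufa13/Yjefn3 below. In the GENCODE annotation the exons of these rows share no bases with each other, though both overlap Tssk6 on the opposite strand. Which gene the reads of Ndufa13/Yjefn3 come from was not tested. All 83 rows, and all 84 in the fixation table, passed the filter on low values in every comparison. The genes lie on 19 chromosomes and are short: their gene models had a median length of 1287 bases, against 3450 bases over all rows.

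RNA was sequenced from muscle stem cells (satellite cells) and hindlimb muscle of mice in 39 libraries and 10 groups, with 4 libraries in every group except the 3 of unfixed cells. Cells of 2 groups were given the RNA polymerase II inhibitor a-amanitin (written alpha-amanitin below) or its solvent DMSO while they were being isolated. RNA that took up the uracil analogue 4tU during the isolation of about 6 h (the isolation label) was pulled down and is compared with the total RNA of the purified cells (isolated cells). For labelling in the living animal, mice of the genotype Pax7CreER/+: UPRTHA/+ received 4tU 6 h before muscles were taken, or at intervals of 12 h over 1 d or 4 d. The pulled-down RNA of these 3 groups (6 h, 1 d and 4 d label) came from hindlimb muscle and is compared with total RNA of that muscle (whole muscle). In this design Cre is driven from the Pax7 locus, which is active in satellite cells, so the enzyme UPRT that permits uptake of 4tU is directed to those cells. Cells fixed by perfusion with 1% paraformaldehyde before sorting are compared with unfixed cells taken through the same RNA extraction kit; the labels give neither the genotype of those mice nor the age of any mouse. The labels do not say that libraries of a group came from separate animals, so p-values measure the spread between these libraries, which may be technical.

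Recovered read totals ran between 2321903 and 102619074 per library, and the 4 isolation label libraries were the shallowest, with at most 7742378 reads. The values are RPKM, the authors' read counts corrected for gene-model length and for a scaled library size. That size was 0.612 to 1.95 times the recovered read total, a factor that the alternative with library sizes from all reads leaves out. Identity was checked with 30 muscle fibre markers and 14 satellite cell markers, whose RPKM were summed in each library. The isolated cells had satellite cell sums of 1745.1 to 1780.4 and fibre sums of 448.4 to 772.4. The 6 h label had satellite cell sums of 196.2 to 215.7 and fibre sums of 104207.4 to 113252.5, although the labels name its tissue as muscle stem cells. Pax7, the defining satellite cell gene, averaged 0.318 ± 0.058, 0.178 ± 0.051 and 0.196 ± 0.045 RPKM after 6 h, 1 d and 4 d of labelling, against 0.0889 ± 0.0118 RPKM in whole muscle and 17.9 ± 1.20 in the isolated cells (SD, n = 4 each). Whole muscle had satellite cell sums of 136.5 to 139.9, below those of the 6 h label, and Myf5, another satellite cell gene, averaged 9.40 ± 0.461 RPKM in the 6 h label against 1.58 ± 0.0316 RPKM in whole muscle. In Pax7 the 1 d and 4 d label also lay above whole muscle, with no overlap between libraries. They were not above it in the satellite cell sums or in mean Myf5. Their satellite cell sums were 130.3 to 136.9 and 120.2 to 121.1, and Myf5 averaged 1.36 ± 0.271 and 1.26 ± 0.434 RPKM. The in vivo label libraries are therefore called by their labelling time here and not by a cell type. Fibre markers also differed between libraries within groups. Isolation label replicates 2 and 3 had fibre sums of 56592.0 and 61021.4, against 15126.4 and 17564.2 in replicates 1 and 4. Alpha-amanitin replicate 1 had 4149.8, against 16516.2 to 20232.7 in the other 3.

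Oxidative phosphorylation passes electrons from NADH through complex I, or from succinate through complex II, to complexes III and IV in the inner mitochondrial membrane, and complex V uses the resulting proton gradient to make ATP. Its nuclear genes encode most subunits, while the mitochondrial genome supplies a small catalytic set. Muscle fibres hold many mitochondria and use tissue-specific forms of some complex IV subunits: Cox6a2, Cox7a1 and Cox8b are the forms of heart and skeletal muscle, and Cox6a1, Cox7a2 and Cox8a are the common forms of most other tissues. Resting satellite cells are known for a low mitochondrial content.

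The promoters of these isoform genes are shown because the results below turn on the contrast between the muscle and the common forms. Each sequence is the 250 bases before the RefSeq transcription start on GRCm38.p6, written 5′ to 3′ on the gene's strand. Cox6a1 lies at chr5:115348959-115349208 (minus strand), Cox7a2 at chr9:79759854-79760103 (minus), Cox8a at chr19:7217617-7217866 (minus), Cox7a1 at chr7:30183921-30184170 (plus) and Cox8b at chr7:140900447-140900696 (minus). Capitals mark letters that match a motif searched.
Cox6a1, common form: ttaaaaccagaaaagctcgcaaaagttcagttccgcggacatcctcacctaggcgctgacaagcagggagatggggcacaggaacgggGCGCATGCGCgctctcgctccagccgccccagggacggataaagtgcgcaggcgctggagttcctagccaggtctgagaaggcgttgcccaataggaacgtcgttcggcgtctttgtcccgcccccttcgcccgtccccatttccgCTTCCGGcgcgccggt
Cox7a2, common form: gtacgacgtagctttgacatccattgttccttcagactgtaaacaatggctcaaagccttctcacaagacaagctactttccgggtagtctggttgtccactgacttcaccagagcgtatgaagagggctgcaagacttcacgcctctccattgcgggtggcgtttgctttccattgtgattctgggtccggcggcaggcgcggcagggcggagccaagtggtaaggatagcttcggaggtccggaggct
Cox8a, common form: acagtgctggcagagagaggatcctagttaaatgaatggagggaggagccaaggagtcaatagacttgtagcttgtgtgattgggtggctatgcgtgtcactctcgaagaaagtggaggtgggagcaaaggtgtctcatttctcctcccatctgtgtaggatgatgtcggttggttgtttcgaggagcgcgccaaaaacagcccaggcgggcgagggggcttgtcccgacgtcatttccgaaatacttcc
Cox7a1, muscle form: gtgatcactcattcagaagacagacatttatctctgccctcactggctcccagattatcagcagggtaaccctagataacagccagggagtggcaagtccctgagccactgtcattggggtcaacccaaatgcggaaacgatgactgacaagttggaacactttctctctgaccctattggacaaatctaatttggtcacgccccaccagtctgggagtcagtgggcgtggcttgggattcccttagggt
Cox8b, muscle form: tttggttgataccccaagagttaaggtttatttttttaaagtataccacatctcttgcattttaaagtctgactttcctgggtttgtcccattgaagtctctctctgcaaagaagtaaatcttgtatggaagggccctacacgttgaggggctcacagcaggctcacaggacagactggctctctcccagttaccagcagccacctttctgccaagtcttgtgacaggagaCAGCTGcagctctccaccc

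The capitals in Cox6a1 are 2 overlapping matches to GCATGCGC and its reverse complement, the core of the site of NRF1 (nuclear respiratory factor 1), beginning 160 and 162 bases before the start, and CTTCCGG, the reverse complement of the GABPA motif, 16 bases before it. The capitals in Cox8b are CAGCTG, an E box of the kind that MyoD binds, 19 bases before the start. A further CAGCTG of this gene lies after the start, outside the sequence shown. The 250 bases of Cox7a2, Cox8a and Cox7a1 held no match to any motif searched, but Cox8a has 2 GABPA matches outside them, of which 1 spans the start with its first 5 bases at the end of the sequence shown and 1 lies after the start. G and C made up 62.8% of the 250 bases of Cox6a1, 54.8% of Cox7a2 and 52.8% of Cox8a, against 51.2% of Cox7a1 and 47.2% of Cox8b. A RefSeq window of 300 bases, 250 before the start and 50 after it, was held for 68 of the 83 genes and for 27025 genes in all; none was held for Cox6a2 or Ndufs1. On both strands, GCATGCGC (NRF1) was found in 10 of the 68, or 14.7%, against 3.05% of all genes. CCGGAAG (GABPA, the DNA-binding part of nuclear respiratory factor 2) was found in 16, or 23.5%, against 9.93%. ATGGCGGC (YY1) was found in 7, or 10.3%, against 2.60%, and 6 of the 7 were complex I genes, which made up 32 of the 68. TCAAGGTCA (ERR alpha, the orphan receptor encoded by Esrra) was found in Sdhd and Atp5g3, or 2.94%, against 0.466%. CTAAAAATA (MEF2, a muscle regulator) was found in 0 of 68, against 0.588% of all genes, and CAGCTG in 6, or 8.82%, against 18.3%. These shares describe letters in a window and were not tested.

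In isolated cells the 83 genes had a median level of 17.3 RPKM and the highest gene was Atp5b, the catalytic beta subunit of ATP synthase, at 122.8 RPKM. In whole muscle the median was 529.2 RPKM, with a lowest level of 5.96 RPKM for Cox4i2, the lung form of subunit 4, and a highest of 2899.2 RPKM for Cox6a2. By complex, the median level in isolated cells was 13.5 RPKM for complex I, 20.1 for II, 30.8 for III, 28.3 for IV and 18.2 for V, and in whole muscle it was 494.9, 640.1, 1113.0, 973.0 and 518.7 RPKM in the same order. Complexes III and IV thus had the 2 highest medians in both. The alpha-amanitin cells lay between these extremes, with medians of 47.1 RPKM for complex I and 139.4 for complex IV, against 15.6 and 33.2 in DMSO cells. The isolation label had 153.3 RPKM for complex I and 424.7 for complex IV. Libraries of a group were close for most genes in the in vivo sets, with a median coefficient of variation of 4.27% in the 6 h label and 3.04% in whole muscle. They were far apart in alpha-amanitin cells, at 35.5%, and in the isolation label, at 31.3%.

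**Figure D1:**
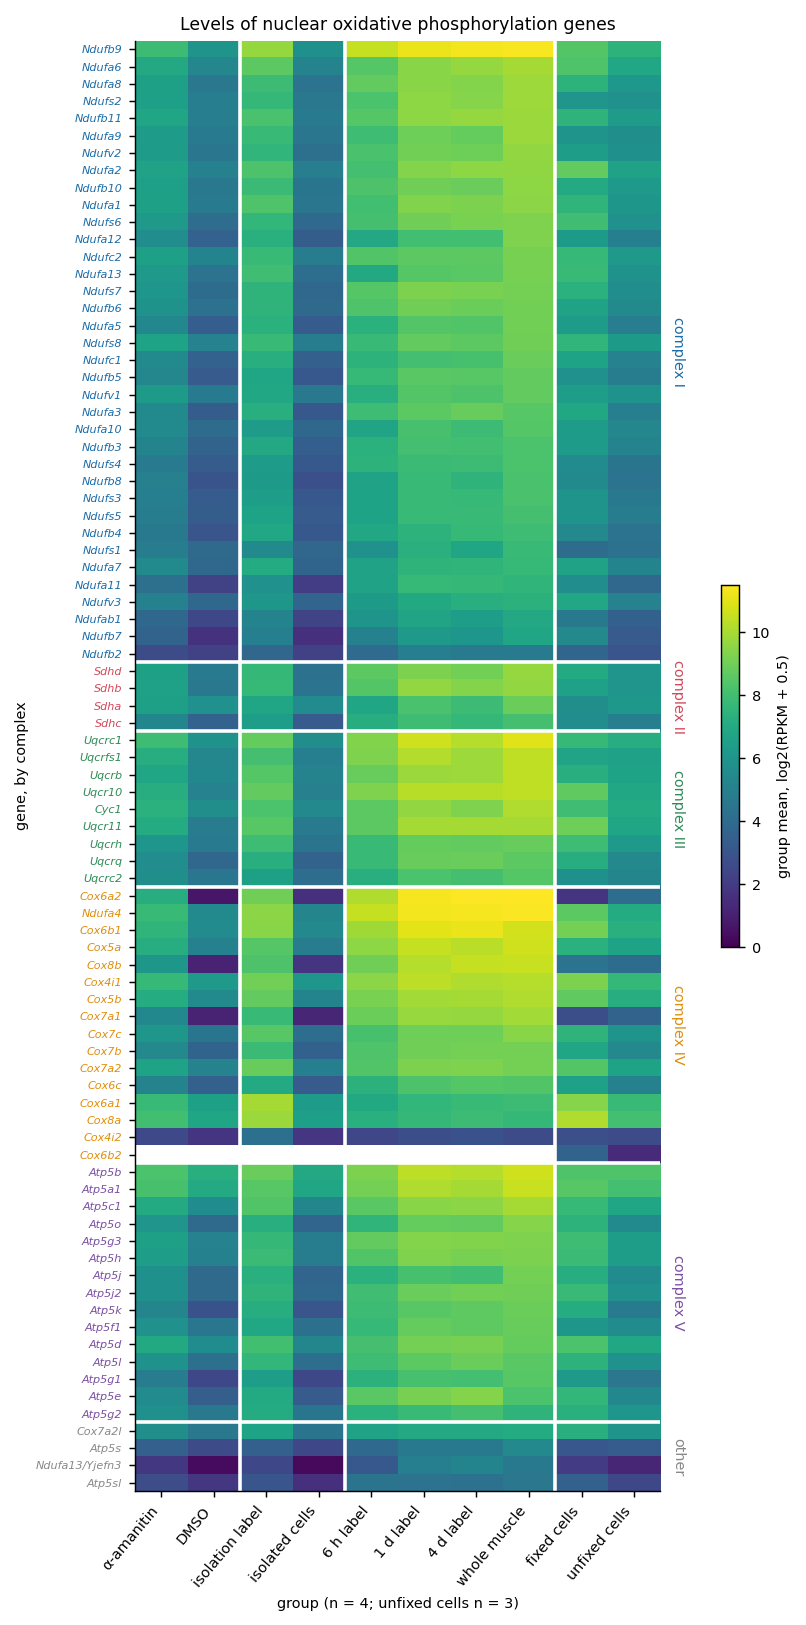
Group mean level of each gene on the log2(RPKM + 0.5) scale (colour), with genes in rows sorted by complex and by level in whole muscle, and groups in columns; blank cells are genes absent from a table, and the fixation table was normalised separately. Most rows are darker in isolated and DMSO cells than in the in vivo label and whole muscle. Cox6a2 spans 1.10 RPKM in DMSO cells to 2958.7 RPKM in the 4 d label, while Cox6a1 is brightest in the isolation label (998.5 RPKM) and Cox8a in fixed cells (1137.1 RPKM).

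With the authors' scaling, isolated cells had lower values of every nuclear subunit gene than whole muscle. All 83 genes were called lower and 0 higher (limma, Benjamini-Hochberg adjusted p under 0.05 over all genes tested), where 46.5% of all 14813 genes tested were lower and 48.8% higher. At an unadjusted p under 0.05, where no share of all genes was counted here or below, the count of 0 was the same. It was also the same with limma-voom on recovered reads, which called 48.8% of all genes higher. With library sizes from all reads it was 2, where 73.2% of all genes were called higher. The median log2 difference, isolated cells over whole muscle, was -4.98, and that of all genes was 0.06. In bulk RNA, fewer cells of a type and less RNA per cell cannot be told apart. The muscle isoforms differed most. Cox6a2, the muscle form of subunit 6A, had 0.561, 0.953, 3.22 and 4.88 RPKM in isolated cells, against 2836.5, 2840.8, 2856.2 and 3063.1 RPKM in whole muscle. The groups lay far apart, at a log2 difference of -10.27 ± 0.41 (SE) and an adjusted p of 1.12e-10. Cox8b differed by -8.86 and Cox7a1 by -8.75, with no overlap between groups.

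The common forms differed less. Cox6a1 averaged 78.6 ± 3.67 RPKM in isolated cells and 235.0 ± 10.8 RPKM in whole muscle (SD, n = 4 each), a log2 difference of -1.57. Cox8a averaged 90.4 ± 7.59 RPKM and 202.4 ± 3.80 RPKM in the same groups, a difference of -1.16. Both depend on scaling: with library sizes taken from all reads, which moves the median of all genes by 1.41, Cox6a1 differed by 0.04 and was not called, and Cox8a was called higher by 0.45. Cox7a2, the common form of subunit 7A, averaged 30.6 ± 2.04 RPKM in isolated cells and 550.5 ± 16.5 RPKM in whole muscle, a difference of -4.15 that kept its direction under that scaling. Cox4i2 had the least difference of the 83 genes, at -0.90. Among the core subunits, Ndufs1 of complex I had 13.0 to 13.6 RPKM in isolated cells and 205.2 to 224.1 RPKM in whole muscle, and Sdha, the flavoprotein of complex II, had 45.5 to 47.4 RPKM and 464.7 to 494.0 RPKM. Uqcrc1 of complex III had 47.2 to 52.5 RPKM against 1864.2 to 2080.4 RPKM, and Atp5b had 120.2 to 124.7 RPKM against 1568.7 to 1674.7 RPKM. All 43 assembly factors, all 13 tricarboxylic acid cycle genes, all 9 cytochrome c and carrier genes and all 12 mitochondrially encoded genes tested were also lower in isolated cells. All 30 fibre markers were lower too, and all 14 satellite cell markers were higher.

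**Figure D2:**
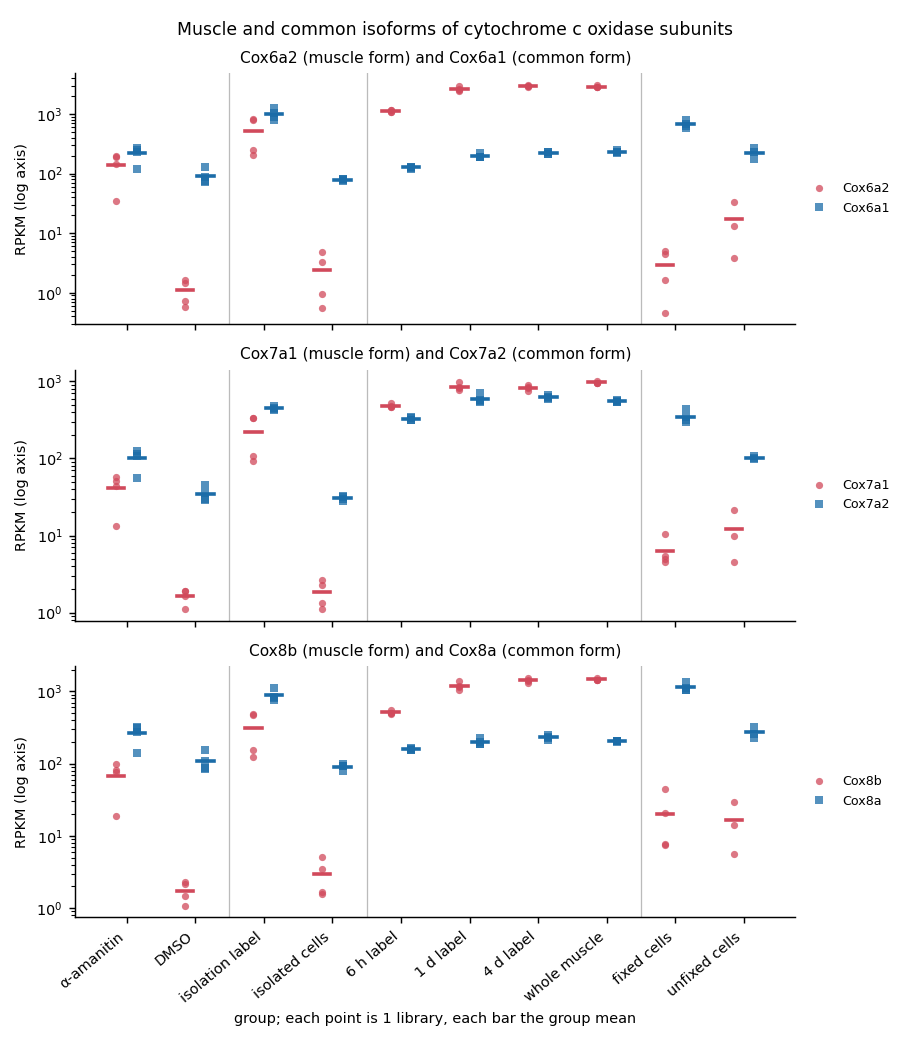
Level of the muscle form (red circles) and the common form (blue squares) of 3 complex IV subunits in each library, on a log axis in RPKM, with the group mean as a bar. Muscle forms lie above common forms in the 6 h, 1 d and 4 d label and in whole muscle, and below them in the mean of each other group.

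The balance within each pair does not depend on library scaling, since both genes are read in the same library. As a share of the pair's summed RPKM, Cox6a2 made up 36.6% ± 10.1 in alpha-amanitin cells against 1.17% ± 0.431 in DMSO cells, and 32.6% ± 18.6 in the isolation label against 2.85% ± 2.28 in isolated cells (SD, n = 4 each). It made up 89.8% ± 0.171, 93.0% ± 0.216 and 93.0% after 6 h, 1 d and 4 d of labelling, against 92.5% ± 0.126 in whole muscle. The groups of alpha-amanitin and DMSO cells did not overlap, nor did isolation label and isolated cells. Cox7a1 made up 27.5% in alpha-amanitin cells against 4.53% in DMSO cells, 30.7% in the isolation label against 5.57% in isolated cells, and 59.6%, 59.1% and 57% in the 6 h, 1 d and 4 d label against 63.8% in whole muscle. For Cox8b the shares were 19.4% against 1.58%, 25.4% against 3.06%, and 76.2%, 85.6% and 85.9% against 87.9%, in the same order of groups.

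Differences in log2(muscle form over common form), with 0.5 RPKM added to each gene, were tested by two-sided exact permutation tests. These covered the 24 combinations of 3 pairs and 8 comparisons. Where the muscle form is low, as in isolated, DMSO and fixed cells, the ratio depends in part on that addition and so on library scaling. With 4 libraries against 4 the smallest p possible is 0.0286, and all 21 such tests gave it, with p adjusted over the 24 of 0.0327. Alpha-amanitin minus DMSO was 5.04 for Cox6a2 over Cox6a1, 2.63 for Cox7a1 over Cox7a2 and 3.52 for Cox8b over Cox8a. Isolation label minus isolated cells was 3.87, 2.51 and 3.10. Isolated cells minus whole muscle was -8.69, -4.60 and -7.70. In vivo label minus whole muscle was -0.48, -0.26 and -1.18 for the 6 h label, 0.11, -0.29 and -0.28 for the 1 d label, and 0.11, -0.42 and -0.25 for the 4 d label. The 4 d minus 6 h label gave 0.59, -0.16 and 0.93, so that the ratio of Cox7a1 was lower at 4 d where the other two were higher.

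Treatment with alpha-amanitin during isolation was accompanied by higher values of nearly the whole set. In alpha-amanitin against DMSO cells 82 of 83 genes were called higher and 0 lower, where 33.9% of all 13710 genes tested were higher and 10.3% lower. At an unadjusted p under 0.05 the counts were 83 and 0. With limma-voom on recovered reads they were 80 and 0, where 32.4% of all genes were higher and 13.2% lower. The median log2 change was 1.59 for the 83 genes and 0.28 for all genes. All 36 genes of complex I rose (median 1.62), as did all 9 of complex III (1.72), all 15 of complex IV (1.60) and all 15 of complex V (1.42). In complex II, 3 of 4 rose. Sdha was the gene not called: it had 51.3, 94.1, 107.5 and 111.1 RPKM in alpha-amanitin cells and 74.1, 50.6, 49.7 and 50.3 RPKM in DMSO cells. These groups overlapped through the first replicate of each, with a log2 change of 0.65 ± 0.28 (SE) and an adjusted p of 0.075. Without alpha-amanitin replicate 1 Sdha was called, at 0.90 with an adjusted p of 0.000271, and all 83 genes were called, where 54.7% of all genes were. Without alpha-amanitin replicate 2, 3 or 4 the count was 75 or 76, and the share of all genes called higher 17.3% to 18.2%; without DMSO replicate 2, 3 or 4 they were 77 or 78 genes and 20.5% to 21.5%.

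The muscle isoforms rose most. Cox6a2 had 34.7, 143.1, 196.2 and 191.8 RPKM in alpha-amanitin cells, against 1.48, 1.61, 0.568 and 0.734 RPKM in DMSO cells. Every treated library lay above every DMSO library, with replicate 1 the lowest of the treated, and the change was 6.26 ± 0.51 (76.8-fold, adjusted p = 9.72e-05). Cox8b had 18.9, 75.6, 97.9 and 81.4 RPKM against 2.12, 2.28, 1.08 and 1.49 RPKM, a change of 4.75 ± 0.46. Cox7a1 had 13.5, 43.6, 57 and 50.3 RPKM against 1.90, 1.92, 1.64 and 1.12 RPKM, a change of 4.11 ± 0.40. The common forms changed less: Cox6a1 by 1.23 ± 0.30, Cox8a by 1.23 ± 0.31 and Cox7a2 by 1.48 ± 0.28. For Cox6a1 the first alpha-amanitin library (120.4 RPKM) lay below the first DMSO library (126.7 RPKM), while the other 3 of each group, at 234.1 to 267.9 and 73.1 to 89.3 RPKM, did not overlap. Uqcrc1 rose by 1.91 ± 0.33, Cox4i1, the common form of subunit 4, by 1.48 ± 0.31 and Ndufs1 by 0.85 ± 0.21. Atp5b rose by 1.00 ± 0.27 (adjusted p = 0.0159), but that call was lost without alpha-amanitin replicate 2, 3 or 4 (0.0548 to 0.056) and without DMSO replicate 3 or 4 (0.0516 and 0.0502).

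Fibre markers moved with these genes. Of 30 fibre markers 29 rose and 0 fell, with summed RPKM of 4149.8 to 20232.7 in alpha-amanitin cells and 433.0 to 715.0 in DMSO cells; in at least 1 DMSO library 1 of the 30 was at 0. Markers of other cells rose in part: 7 of 10 fibro-adipogenic, 5 of 10 macrophage and immune, 5 of 5 erythroid, 4 of 10 endothelial, 3 of 5 tenocyte, 2 of 6 smooth muscle and pericyte and 0 of 5 Schwann and glial markers, while 1 immune and 1 endothelial marker fell. Of 14 satellite cell markers 2 rose and 2 fell. The part of these cells in the result was not tested. For each gene, the rise was also expressed as a percentage of that gene's whole-muscle level. It had a median of 8.26% over the 83 genes, 6.57% over the fibre markers and 7.77% over tricarboxylic acid cycle genes. It was 4.84% for Cox6a2, 4.06% for Cox7a1 and 4.54% for Cox8b, and 53.9% for Cox6a1, 75.5% for Cox8a and 12.0% for Cox7a2. Of the related lists, 30 of 41 assembly factors, 9 of 13 tricarboxylic acid cycle genes, 8 of 9 cytochrome c and carrier genes and 10 of 10 mitochondrially encoded genes rose, and none of them fell.

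RNA labelled during isolation was far richer in these transcripts than the total RNA of the isolated cells. In the isolation label 82 of 83 genes were called higher and 0 lower, where 29.8% of all 14863 genes tested were higher and 29.7% lower. Both counts were the same at an unadjusted p under 0.05. They were also the same with limma-voom on recovered reads, where 32.1% of all genes were higher and 32.7% lower. The median log2 difference was 3.38 for the 83 genes and -0.07 for all genes. Complex IV had the highest median of the complexes, 3.86, and complex V the lowest, 3.03. The exception was Atp5s, coupling factor B, which had 4.17, 14.1, 20.8 and 4.86 RPKM in the isolation label and 4.56, 5.21, 5.62 and 4.81 RPKM in isolated cells (0.76 ± 0.45, adjusted p = 0.173). Its replicates 2 and 3 were high and its replicates 1 and 4 within or below the isolated cells.

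The muscle isoforms followed the same split of replicates. Cox6a2 had 208.8, 791.0, 817.2 and 247.6 RPKM in the isolation label, against 0.561 to 4.88 RPKM in isolated cells, a difference of 7.51 ± 0.62 (adjusted p = 8.78e-06). Cox7a1 had 93.8, 339.1, 335.7 and 109.2 RPKM, against 1.11 to 2.63 RPKM, a difference of 6.36 ± 0.46, and Cox8b differed by 6.36 ± 0.51. In all 3 genes replicates 2 and 3, whose fibre sums were highest, stood above replicates 1 and 4. The common forms did not have that order. Cox6a1 had 1039.2, 892.9, 801.5 and 1260.3 RPKM in the isolation label, against 73.9, 77.8, 80.6 and 82.3 RPKM in isolated cells, a difference of 3.64 ± 0.14 (adjusted p = 1.62e-07). Cox8a had 840.2, 800.5, 748.5 and 1121.4 RPKM, against 79.7, 91.8, 92.3 and 97.7 RPKM, a difference of 3.26 ± 0.14. Replicate 4 was the highest for both and replicate 3 the lowest. Cox7a2 had 420.7, 444.8, 452.4 and 479.0 RPKM, against 28.3 to 32.5 RPKM, a difference of 3.86 ± 0.09. Among the core subunits, Uqcrc1 rose by 2.99 ± 0.30, Atp5b by 1.87 ± 0.22 and Ndufs1 by 1.48 ± 0.36. Sdha rose least of these, by 1.08 ± 0.31 (adjusted p = 0.0133), with 57.2, 152.2, 154.6 and 71.9 RPKM against 45.5 to 47.4 RPKM; with library sizes from all reads it was not called, at 0.38 (adjusted p = 0.217).

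The isolation label levels of Cox6a1 and Cox8a also lay above those of whole muscle in every library, where they averaged 235.0 ± 10.8 and 202.4 ± 3.80 RPKM; this difference was not tested. As a percentage of the whole-muscle level, the difference between isolation label and isolated cells was 391.5% for Cox6a1, 388.9% for Cox8a and 76.0% for Cox7a2. It was 17.7% for Cox6a2, 22.4% for Cox7a1 and 21% for Cox8b. The 30 fibre markers had a median of 16.9% and a range of 13.2% to 21.5%, and the 83 genes a median of 28.6%. All 30 fibre markers rose in the isolation label, with summed RPKM of 15126.4 to 61021.4 against 448.4 to 772.4 in isolated cells, and 10 of 14 satellite cell markers fell. Markers of other cells were higher as well: 8 of 10 fibro-adipogenic, 8 of 10 macrophage and immune, 5 of 5 erythroid, 6 of 10 endothelial, 4 of 5 tenocyte, 3 of 6 smooth muscle and pericyte and 2 of 4 Schwann and glial markers, while 7 markers of these lists fell. Their part in the result was not tested. Of the related lists, 33 of 43 assembly factors, 11 of 13 tricarboxylic acid cycle genes, all 9 cytochrome c and carrier genes and all 11 mitochondrially encoded genes tested rose, and none of them fell. Leaving out replicate 2 or replicate 3 of the isolation label left 82 genes called higher, where 29.4% or 29.1% of all genes were.

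**Figure D3:**
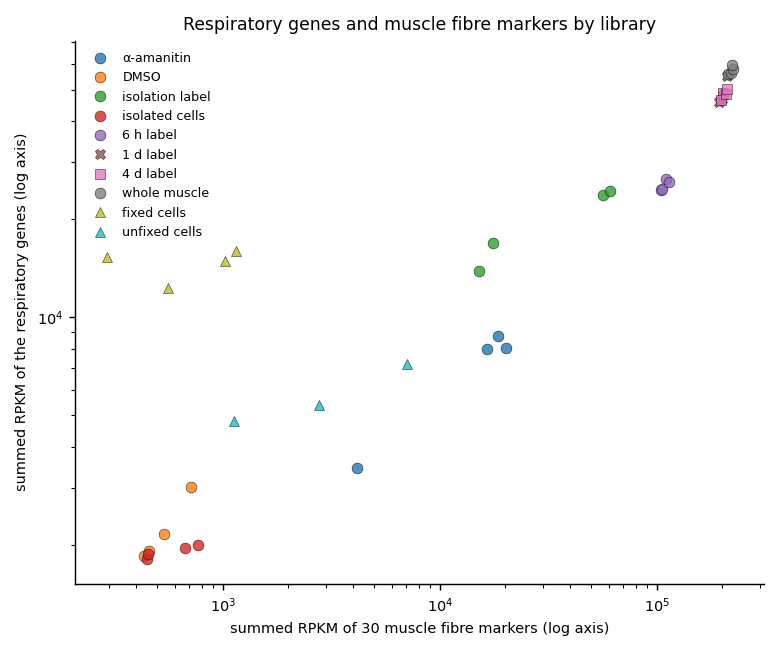
Summed RPKM of the oxidative phosphorylation genes (vertical, log axis) against summed RPKM of 30 muscle fibre markers (horizontal, log axis) in each of the 39 libraries, coloured by group. Fixed cells combine fibre sums of 292.3 to 1152.8 with sums of 12304.0 to 16022.7 for these genes, against 4812.3 in unfixed replicate 2, at a fibre sum of 1131.9. Fixed and unfixed libraries come from the separately normalised table.

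Gene-model length also moved with this comparison. Over all genes, the median log2 difference between isolation label and isolated cells was 0.90 below 1000 bases, 0.78 between 1000 and 2000, 0.15 between 2000 and 4000 and -0.45 above that. For the respiratory genes the medians in the same bins were 3.50, 3.24, 3.0 and 2.66, so that in each bin they lay above those of all genes. The bins were chosen after the data had been seen.

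Labelling in the living animal for 6 h gave lower values than whole muscle for nearly every gene of the set. In the 6 h label 82 of 83 genes were called lower and 1 higher, where 44.4% of all 11746 genes tested were lower and 45.6% higher. The median log2 difference was -1.11, against 0.02 for all genes, and the medians by complex ran between -0.93 for complex IV and -1.29 for complex I. The 6 h, 1 d and 4 d label and the isolated cells are all compared with the same whole-muscle libraries. Sdha had 108.5, 109.7, 107.7 and 104.5 RPKM in the 6 h label, against 464.7, 479.8, 493.4 and 494.0 RPKM in whole muscle, a difference of -2.16 ± 0.03 (adjusted p = 4.95e-14). Ndufa12, an accessory subunit of complex I, differed by -2.33, Ndufa13, another accessory subunit, by -2.14 and Ndufs1 by -1.95. The gene that was higher was Atp5e, the epsilon subunit of ATP synthase, with 407.0, 361.8, 360.7 and 380.7 RPKM against 306.2, 300.3, 302.5 and 312.4 RPKM. Its groups did not overlap, at a difference of 0.30 ± 0.04, but it was not called higher with median-of-ratios scaling or with all groups in 1 fit.

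Uqcrc1 fell by 1.61 on the log2 scale and Atp5b by 1.43, while Cox4i1 fell by 0.70. Among the isoforms, Cox8b had 559.7, 493.4, 496.2 and 497.3 RPKM in the 6 h label, against 1418.0 to 1549.4 RPKM in whole muscle, and Cox6a2 had 1072.1 to 1177.8 RPKM against 2836.5 to 3063.1 RPKM. Both fell, by 1.52 and 1.37 on the log2 scale. Cox8a fell by 0.34, a call that was lost with all groups in 1 fit; with library sizes from all reads its difference was 0.01. Fibre markers moved the same way: 29 of 30 were lower and 0 higher, with sums of 104207.4 to 113252.5 in the 6 h label and 213602.7 to 224709.7 in whole muscle. All 13 tricarboxylic acid cycle genes, 34 of 43 assembly factors, 8 of 9 cytochrome c and carrier genes and 9 of 12 mitochondrially encoded genes were lower too, and 4 assembly factors, 1 carrier and 2 mitochondrially encoded genes were higher. The part of the fibre RNA in the result was not tested.

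With 1 d and 4 d of labelling the differences from whole muscle were smaller and went both ways. In the 1 d label 56 genes were called lower and 10 higher, where 54.7% of all 11158 genes tested were lower and 28.2% higher. The median log2 difference was -0.24, against -0.19 for all genes. In the 4 d label 57 were lower and 14 higher, where 56.4% of all 11347 genes tested were lower and 28.1% higher, and the median was -0.24, against -0.21 for all genes. The split depended on scaling: with library sizes from all reads it was 32 lower and 23 higher at 1 d, and 39 lower and 33 higher at 4 d, where 39.2% of all genes were lower and 41.9% higher at 1 d, and 44.2% and 39.4% at 4 d. With all groups in 1 fit it was 16 lower and 1 higher at 1 d, and 25 lower and 2 higher at 4 d, where 33.1% of all genes were lower and 16.5% higher at 1 d, and 36.6% and 16.6% at 4 d. Complex I had 31 of 36 genes lower at each time and 2 higher at 1 d and 4 at 4 d, whereas complex IV had 6 lower and 2 higher of 15 at 1 d, and 5 lower and 4 higher at 4 d. Complex V had 8 lower and 4 higher of 15 at both times. The other 17 genes at 1 d and 12 at 4 d were not called.

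Atp5e was again the gene with the largest rise. It had 660.3, 530.3, 545.8 and 521.9 RPKM in the 1 d label and 692.7, 619.8, 646.0 and 691.5 RPKM in the 4 d label, against 300.3 to 312.4 RPKM in whole muscle. Both groups lay wholly above whole muscle, by 0.88 ± 0.06 and 1.12 ± 0.04. Ndufa12 and Atp5j, coupling factor 6 of ATP synthase, lay below it. Ndufa12 had 306.4, 243.8, 251.9 and 238.3 RPKM at 1 d and 260.5, 252.7, 258.4 and 274.4 RPKM at 4 d, against 581.2 to 695.6 RPKM, with differences of -1.26 and -1.25. Atp5j differed by -0.95 and -1.15; its exons overlap those of Gabpa on the opposite strand, and whether the counting used strand is not stated. Atp5g2, a gene of the ring-forming c subunit, was higher at 4 d by 0.61 and Cox6b1 of complex IV at 1 d by 0.31, while Ndufc1 of complex I was lower at 1 d by -0.81. Ndufa13/Yjefn3 was higher at both times, by 0.32 and 0.58, whereas the main Ndufa13 row was called lower.

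Of the named core subunits, Ndufs1, Sdha, Uqcrc1 and Atp5b were called lower at both times. Ndufs1 had 150.8 to 160.6 RPKM in the 1 d label and 104.9 to 114.6 RPKM in the 4 d label, against 205.2 to 224.1 RPKM in whole muscle. Sdha had 281.8 to 294.1 and 227.1 to 237.7 RPKM, against 464.7 to 494.0 RPKM. The 4 d values of both genes lay wholly below the 1 d values. Uqcrc1 averaged 1615.3 ± 98.7 RPKM at 1 d and 1202.4 ± 26.2 RPKM at 4 d, against 1962.7 ± 91.4 RPKM in whole muscle (SD, n = 4 each). Atp5b had 1257.3 to 1351.9 and 1151.4 to 1207.4 RPKM at these times, against 1568.7 to 1674.7 RPKM, with no overlap. With all groups in 1 fit the 1 d calls of Ndufs1 (-0.45, adjusted p = 0.0997), Uqcrc1 (-0.28, 0.361) and Atp5b (-0.32, 0.162) were lost, and with library sizes from all reads that of Uqcrc1 was lost (-0.06, 0.155). Cox4i1 was called higher at 1 d by 0.15, a call lost without whole muscle replicate 1 or 2 (adjusted p = 0.0724 and 0.069), and at 4 d it differed by -0.06, not called.

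Among the isoforms, Cox8b was lower by -0.30 at 1 d and Cox6a1 by -0.25, calls lost with all groups in 1 fit (adjusted p = 0.543 and 0.26) and with library sizes from all reads (0.233 and 0.591); at 4 d neither was called, but that last scaling called both higher, by 0.14 and 0.12. Cox6a2 had 2432.2 to 3013.1 RPKM in the 1 d label and 2797.1 to 3116.6 RPKM in the 4 d label, against 2836.5 to 3063.1 RPKM. The groups overlapped, and neither difference was called (-0.14 ± 0.06 at 1 d and 0.03 ± 0.04 at 4 d, adjusted p = 0.0521 and 0.516), although without 1 d replicate 1 the 1 d difference was called, at -0.21 (adjusted p = 0.000181). Cox7a1 was lower at 1 d by -0.19 and at 4 d by -0.23; with library sizes from all reads the values were 0.03 and -0.03 and neither was called. Cox8a and Cox7a2 were higher at 4 d by 0.20 and 0.19, both calls lost with all groups in 1 fit. Fibre markers at 1 d were lower for 18 and higher for 8 of 30, and at 4 d lower for 19 and higher for 8. Of tricarboxylic acid cycle genes 11 of 13 were lower at 1 d and 13 of 13 at 4 d, and of assembly factors 31 of 43 and 30 of 43, with 3 and 8 higher.

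Set against each other, the 4 d label held more of nearly every subunit transcript than the 6 h label. At 4 d against 6 h 82 genes were called higher and 1 lower, where 36.1% of all 11975 genes tested were higher and 52.7% lower. The median log2 difference was 0.87, against -0.18 for all genes. Ndufa13/Yjefn3 rose most, by 2.06, with 34 to 38.9 RPKM at 4 d and 6.84 to 9.42 RPKM at 6 h. Ndufa13 had 358.3 to 392.7 RPKM against 119.6 to 138.7 RPKM, a rise of 1.57, and Ndufa2, also of complex I, had 692.6 to 797.3 RPKM against 249.9 to 289.2 RPKM, a rise of 1.5. Cox8b followed at 1.47 and Cox6a2 at 1.40. The 1 gene that fell was Atp5sl, with 19, 19.1, 19.5 and 19.5 RPKM at 4 d against 20.1, 22.3, 21.5 and 21.5 RPKM at 6 h (-0.14 ± 0.04, adjusted p = 0.0033), and it was not called lower with median-of-ratios scaling or with all groups in 1 fit. All 13 tricarboxylic acid cycle genes rose, as did 29 of 30 fibre markers and 28 of 43 assembly factors (8 fell), while the mitochondrially encoded genes divided, with 6 higher and 6 lower of 12.

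**Figure D4:**
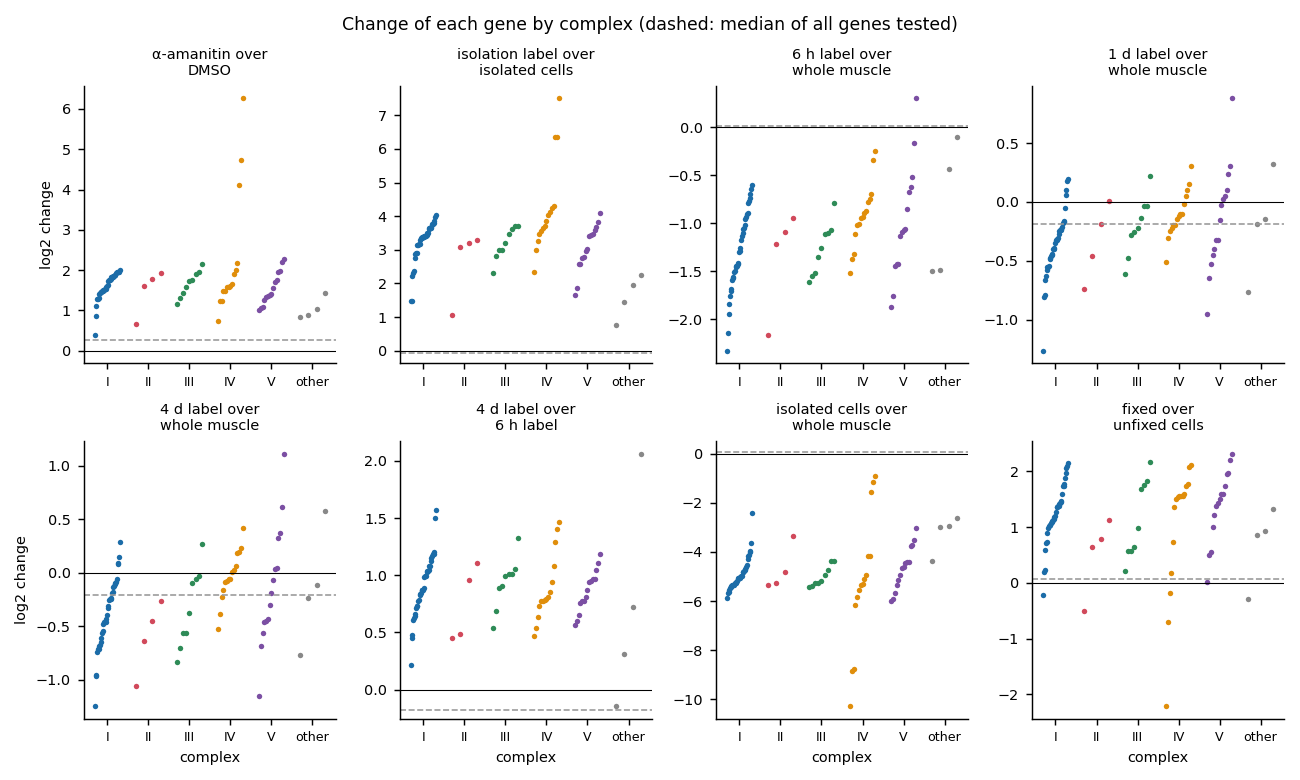
Log2 change of every gene in the 8 comparisons, 1 panel each, with genes grouped by complex and ordered by change within it; the solid line marks 0 and the dashed line the median of all genes tested. In the alpha-amanitin and isolation label panels the 3 muscle isoforms of complex IV stand above the other genes, and in the fixed cell panel most genes of complexes I and V lie above 0 while 3 complex IV genes lie below 0.

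Fixation before sorting was accompanied by higher values of most subunit genes, while none of the 3 muscle forms passed the test. In fixed against unfixed cells 60 of 84 genes were called higher and 0 lower, where 12.2% of all 12816 genes tested were higher and 10.8% lower. At an unadjusted p under 0.05 limma gave 69 higher and 1 lower, and limma-voom on recovered reads called 59 and 0. The median log2 change was 1.34 for the 84 genes and 0.07 for all genes. Complex I had 30 of 36 genes higher, complex II 1 of 4, complex III 5 of 9, complex IV 11 of 16 and complex V 12 of 15. Within complex I, 27 of 29 accessory subunits rose (median 1.28) and 3 of 7 core subunits (median 0.74); the difference between the classes was not tested. Without unfixed replicate 2 or 3 the count of genes called higher was 49 or 51, where 7.84% or 6.43% of all genes were.

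The largest rises were those of Atp5k, Atp5e and Uqcr11. Atp5k, subunit e of ATP synthase, had 107.9, 97.8, 204.9 and 146.3 RPKM in fixed cells, against 28.8, 24.1 and 26.3 RPKM in unfixed cells, a change of 2.32 ± 0.27 (adjusted p = 0.000421). Atp5e had 188.5, 133.8, 276.5 and 183.1 RPKM against 49.6, 36.3 and 37.7 RPKM, a change of 2.20 ± 0.26. Uqcr11 of complex III had 492.1, 386.7, 649.0 and 477.0 RPKM against 122.5, 106.7 and 98.3 RPKM, a change of 2.18 ± 0.22. In all 3 genes every fixed library lay above every unfixed one. Cox6b2, a form known from testis, had 4.88 to 22.9 RPKM in fixed and 1.31 to 2.98 RPKM in unfixed cells, a rise of 2.12 ± 0.47.

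The isoform pairs separated. Cox8a had 1042.1, 1042.9, 1335.8 and 1127.5 RPKM in fixed cells, against 228.9, 326.4 and 257.6 RPKM in unfixed cells, a change of 2.08 ± 0.21 (adjusted p = 0.000225). Cox6a1 rose by 1.59 ± 0.21 and Cox7a2 by 1.74 ± 0.20. Cox6a2 had 0.464, 1.66, 4.50 and 5.08 RPKM in fixed cells, against 33.9, 3.82 and 13.4 RPKM in unfixed cells. Its groups overlapped through unfixed replicate 2, and the change of -2.21 ± 0.77 was not called (adjusted p = 0.0661); without that library it was, at -2.99 and 0.03. Cox7a1 (-0.69 ± 0.49) and Cox8b (0.18 ± 0.68) were not called. For the log2 ratio of muscle over common form, fixed minus unfixed was -3.80 for Cox6a2, -2.44 for Cox7a1 and -1.90 for Cox8b. With 4 libraries against 3 the exact permutation test cannot go below 0.0571, which the first 2 pairs reached; Cox8b had an exact p of 0.171.

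The core subunits Ndufs1, Sdha, Uqcrc1 and Atp5b did not pass the test in this comparison. Ndufs1 had 23.9, 16.7, 8.69 and 16.4 RPKM in fixed cells and 26.9, 10.5 and 20.7 RPKM in unfixed cells, Sdha 32.3 to 65.5 and 59.7 to 82.6 RPKM, and Atp5b 266.9 to 413.4 and 233.8 to 430.2 RPKM. All 3 overlapped between groups. Uqcrc1 had 149.2 to 295.9 RPKM in fixed and 94.5 to 202.5 RPKM in unfixed cells and was not called. Cox4i1 had 509.4 to 659.9 RPKM against 188.5 to 219.0 RPKM and rose, by 1.55 ± 0.19. Fibre markers were at 292.3 to 1152.8 summed RPKM in fixed and 1131.9 to 7066.9 in unfixed cells, with 10 of 28 tested lower and 0 higher. Endothelial markers summed to 42.9 to 260.4 in fixed and 235.1 to 1397.0 in unfixed cells, with 9 of 10 lower. Satellite cell markers summed to 1700.8 to 2220.9 in fixed and 3192.4 to 3733.0 in unfixed cells, with no overlap, and of 14 such markers 3 were higher and 5 lower. Mitochondrially encoded genes moved with the nuclear set, 7 of 10 higher, and so did 13 of 42 assembly factors (1 lower), while 0 of 13 tricarboxylic acid cycle genes were called either way (3 higher and 0 lower at an unadjusted p under 0.05 in limma). Their part in the result was not tested.

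**Figure D5:**
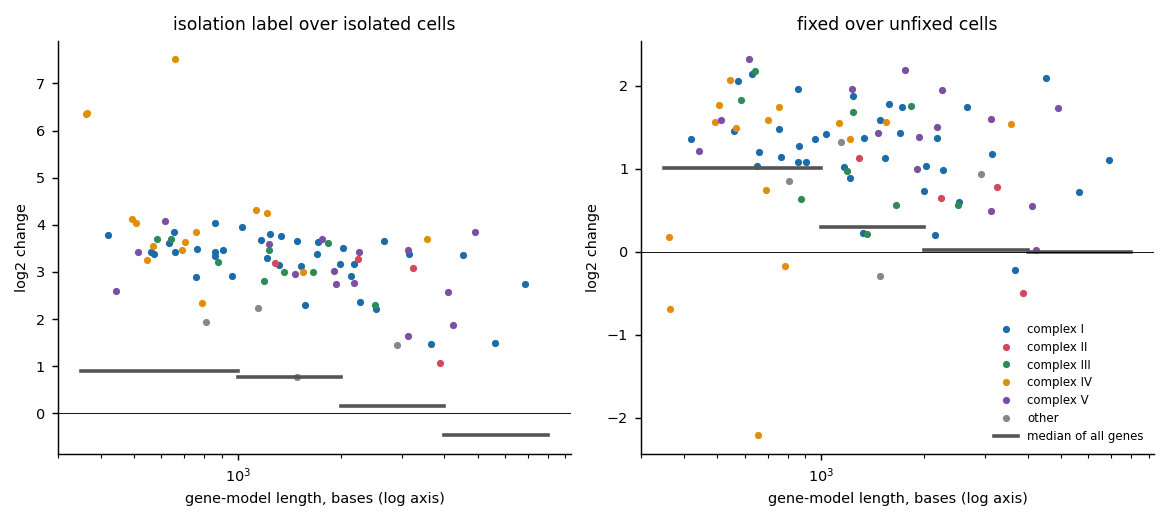
Log2 change of the 83 genes present in both tables against gene-model length in bases (log axis), for isolation label over isolated cells (left) and fixed over unfixed cells (right), coloured by complex, with the median of all genes in each length bin as a horizontal line. In fixed cells the median of all genes was 1.01 below 1000 bases and -0.002 above 4000, and that of these genes 1.36 and 0.91.

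Length moved with the fixation comparison too. Over all genes the median change was 1.01 below 1000 bases, 0.30 between 1000 and 2000, 0.03 between 2000 and 4000 and -0.002 above 4000, and for the respiratory genes it was 1.36, 1.39, 0.96 and 0.91. The part of length in the result was not tested.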

How the data were processed

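RNA was sequenced in 39 libraries of 10 groups, made from oligo(dT)-primed cDNA per the labels' protocols. The authors deposited 2 tables of RPKM values per gene, scaled per library and normalised separately; per the submitters' processing notes the tools were Trim Galore, STAR, featureCounts (Subread) and edgeR with the mm10 build, and no version is given. RPKM multiplied by gene-model length fell on whole multiples of 1 step per library (tolerance 0.1), which gave the read totals. Differences were tested with limma-trend (limma 3.58.1, R 4.3.3) on log2(RPKM + 0.5), which understates changes of low genes, for genes that reached 1 RPKM in 3 or more of the libraries compared, with p adjusted by Benjamini-Hochberg over all genes tested and a threshold of 0.05. Only the groups compared entered a fit. Isoform ratios were tested by exact permutation (scipy 1.17.1). Python 3.11.15, pandas 2.3.3, numpy 2.4.6 and matplotlib 3.10.9 were used, and the fit was tested on simulated data. The text names the 6 isoform genes, 1 core subunit per complex, up to 3 of the largest rises and falls per comparison, and members against the majority when 5 or fewer. The members and the gene lists were chosen with earlier results of these data known. Marker lists covered muscle fibre, satellite, endothelial, fibro-adipogenic, immune, erythroid, smooth muscle, Schwann and tendon cells. Promoters came from RefSeq windows. Alternatives changed the pseudocount, filter, scaling, test, libraries in the fit, replicate block and single libraries. Of the 83 rows, 30 share exon bases with another gene, 5 on the same strand, and Cox6a2 (Itgad), Cox4i1 (Emc8) and Ndufs1 (Eef1b2) do so on the opposite strand; whether counting used strand is not stated. The shallow isolation label libraries held 78876 to 204770 reads of these genes.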

Additional observations from a re-analysis of the deposited data

Results flagged for a closer look

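For the 11 genes named in every comparison, 99 groups of 4 libraries were checked for 1 library standing far from the other 3. Of these groups 16 were marked. Chance marks about 1 independent group in 20, but the 11 genes share the same libraries, so 16 cannot be judged against that rate. In alpha-amanitin cells replicate 1 was low for Atp5b (181.4 RPKM, others 329.8 to 353.8) and Uqcrc1 (107.6 RPKM, others 271.5 to 297.1). In DMSO cells replicate 1 was high for Atp5b (200.1 RPKM, others 126.7 to 137.2), Uqcrc1 (79.3 RPKM, others 52.3 to 55.0), Ndufs1 (18.7 RPKM, others 13.9 to 14.5) and Sdha (74.1 RPKM, others 49.7 to 50.6). The first replicates of these 2 groups were thus nearer to each other than the remaining libraries were, in all 4 genes.

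In the 1 d label replicate 1 was high for Cox4i1 (1469.6 RPKM, others 1239.5 to 1273.8), Cox6a1 (218.8 RPKM, others 188.3 to 192.7) and Uqcrc1 (1762.2 RPKM, others 1553.7 to 1582.0), and replicate 4 was low for Ndufs1 (150.8 RPKM, others 158.9 to 160.6). In the 6 h label replicate 1 was high for Cox7a1 (527.3 RPKM, others 466.0 to 474.3) and Cox8b (559.7 RPKM, others 493.4 to 497.3). In whole muscle replicate 4 was high for Cox6a2 (3063.1 RPKM, others 2836.5 to 2856.2) and Cox7a1 (1008.3 RPKM, others 957.6 to 964.4). Sdha was low in isolated cell replicate 4 (45.5 RPKM, others 47.1 to 47.4), and Cox7a1 was high in fixed cell replicate 1 (10.4 RPKM, others 4.49 to 5.49), the fixed library with the lowest fibre marker sum.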

How the results depend on the processing

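Of 236 alternative counts of called genes 221 stayed within 1.5 times the reported count and 15 did not; of 213 alternative isoform ratios 1 moved by more than the spread between replicates (Cox7a1 over Cox7a2 in isolated cells against whole muscle, -4.88 with a pseudocount of 0.1), and of 1298 alternative changes of named genes 1245 kept direction and side of the threshold, 29 lost a call, 15 gained one and 9 changed direction. Where no value shows a cause, the cause was not tested. With library sizes from all reads, which moved the median of all genes by 0.31 for the 6 h label, 0.20 for 1 d, 0.18 for 4 d, -0.13 for 4 d against 6 h, 1.41 for isolated cells, -0.47 for alpha-amanitin and -0.62 for the isolation label, genes called higher than whole muscle numbered 3 at 6 h, 23 at 1 d, 33 at 4 d and 2 in isolated cells, and those called lower 32 at 1 d. Of all genes tested, 59.4%, 41.9%, 39.4% and 73.2% were called higher in the same order, and 39.2% lower at 1 d. That scaling reversed Cox8a at 6 h (0.014), Cox7a1 (0.031) and Cox8a (0.20) at 1 d, Cox6a1 (0.12), Cox8b (0.14) and Cox4i1 (0.14) at 4 d, and Cox6a1 (0.039) and Cox8a (0.45) in isolated cells. Median-of-ratios scaling gave 0 genes higher at 6 h and 0 lower at 4 d against 6 h. With all groups in 1 fit the counts were 0 higher at 6 h, 1 higher and 16 lower at 1 d, 2 higher and 25 lower at 4 d, and 0 lower at 4 d against 6 h. The shares of all genes in the same order were 35.3%, 16.5% and 33.1%, 16.6% and 36.6%, and 40.4%. Leaving out 1 library gave 75 to 83 genes higher with alpha-amanitin, 82 to 83 in the isolation label, 49 to 62 higher and 0 to 1 lower in fixed cells (1 without unfixed replicate 2), 53 to 65 lower at 1 d and 52 to 61 at 4 d.

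In no comparison was the correlation of same-numbered libraries above 0.1 for every number (with alpha-amanitin and DMSO, r was -0.591 to -0.11), so the numbers were not taken as pairs. With replicate block, 58 genes were called higher with alpha-amanitin, where 12.2% of all genes were. In fixed cells 41 were called higher and 2 lower, where 6.59% of all genes were higher and 7.65% lower. Cox8b was then at -1.38 and Cox6a2 was called at -3.92. At 1 d 55 were called lower, where 54.3% of all genes were. Cox6a1, Cox8a, Ndufs1, Cox4i1 and Atp5b were not called with alpha-amanitin in that setting (adjusted p = 0.0521 to 0.0883). Depth was lowest in the isolation label, at 2321903 to 7742378 reads per library.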

Other observations

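Genes known to regulate the respiratory genes were counted in the same comparisons, and their counts were not tested against those of the subunit genes. Of 10 such genes, 4 were higher and 1 lower in alpha-amanitin against DMSO cells, 2 higher and 4 lower in the isolation label against isolated cells, and 0 higher and 2 lower in fixed against unfixed cells. Against whole muscle, 6 were higher and 2 lower in the 6 h label, 4 higher and 6 lower in the 1 d label, 2 higher and 7 lower in the 4 d label and 5 higher and 5 lower in isolated cells. At 4 d against 6 h, 2 were higher and 7 lower.

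Ppargc1a, which encodes the coactivator PGC-1 alpha, averaged 32 ± 4.24, 4.67 ± 0.226 and 4.90 ± 0.188 RPKM after 6 h, 1 d and 4 d of labelling, against 7.21 ± 0.322 RPKM in whole muscle (SD, n = 4 each). It was called higher at 6 h, by 2.07 ± 0.08 on the log2 scale (SE, adjusted p = 3.82e-11), and lower at 1 d (-0.58) and 4 d (-0.51). Esrra, which encodes ERR alpha, averaged 29.1 ± 1.90, 48.2 ± 2.21 and 55.2 ± 2.07 RPKM at 6 h, 1 d and 4 d, against 21.7 ± 1.31 RPKM in whole muscle, and was called higher at each time (0.42, 1.14 and 1.33). Yy1 averaged 15.2 ± 0.847, 10.6 ± 0.294 and 10.8 ± 0.932 RPKM, against 2.93 ± 0.119 RPKM, and was also higher at each time. Tfam, the mitochondrial transcription factor, averaged 18.2 ± 0.190, 18 ± 0.538 and 17.1 ± 0.621 RPKM, against 20.5 ± 0.696 RPKM, and was lower at each time. These genes were picked after their values had been seen.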
